A study of Mus musculus with 6 samples.

Results

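A set of 20 protein-coding genes was lower in every Rroid-deficient library than in any wildtype library, by a margin fixed on the lowest and highest libraries. A gene entered the set when its lowest wildtype level was at least 2 times its highest deficient level and its mean wildtype level was 15 CPM or more (a gene's reads per 1000000 reads assigned to genes in that library). Of 37991 genes counted, 6481 were protein-coding and reached that mean, and 22 of these met the ratio, which is 0.339% of the 6481. Id2 and Bmf were among the 22 and were left out by name. Klrb1b, also left out by name, had a ratio of 1.49 and would not have entered. The 19 members described by name are Abcc10, Aplp2, Bahcc1, Ccdc17, Cyp4f13, Dennd5a, Dhrs4, Gtpbp6, Jtb, Kif15, Mvb12b, Nudt3, Pink1, Slc2a9, Slc31a2, Tgfbr3, Timeless, Tmem120b and Tmem140. The genes were chosen by their levels in these same 6 libraries, so the lower level of a member in the deficient libraries is given below as a description and carries no test.

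The libraries came from natural killer (NK) cells of the mouse spleen that carry both CD27 and CD11b, on a C57BL6 background. There were 3 libraries from wildtype cells and 3 from cells labelled Rroid deficient, with no other allele or treatment named. The labels do not give how the deficiency was made, the age or sex of the animals, or whether libraries of a genotype came from separate mice, so the spread between libraries may be technical. Reads assigned to genes ranged from 5823626 to 9216430 per library, and a count of 3 was worth 0.326 to 0.515 CPM. Rroid itself was not analysed here.

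Rroid is a long non-coding RNA that marks a regulatory element near Id2. Id2 encodes a protein with no DNA-binding domain that pairs with E proteins and keeps them from DNA. E proteins bind E-boxes, short sites of the form CANNTG, and the balance between Id2 and E proteins is part of how NK cells and other innate lymphocytes develop.

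Because E-boxes are what E proteins bind, the promoters of 6 members are shown. These are the 4 members with the largest margins that have an E-box of the form CAGCTG in the window, and Bahcc1 and Aplp2, whose windows hold no CANNTG. Nudt3 has a further window, not shown, that also holds no CANNTG. Each window runs from 250 bases before to 50 bases after an annotated start, 5′ to 3′ on the gene's strand, from RefSeq on GRCm38.p6. The counts were made on an older mouse build, so these positions are not those of the counted reads. Capitals mark CANNTG, which reads the same on both strands.
Dhrs4 (chr14:55478508-55478807, plus strand): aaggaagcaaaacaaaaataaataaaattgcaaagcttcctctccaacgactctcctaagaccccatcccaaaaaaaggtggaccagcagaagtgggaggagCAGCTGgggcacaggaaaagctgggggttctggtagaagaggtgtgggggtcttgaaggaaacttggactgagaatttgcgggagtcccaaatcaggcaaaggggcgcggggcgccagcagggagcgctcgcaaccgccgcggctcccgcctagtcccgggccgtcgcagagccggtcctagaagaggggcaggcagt
Dennd5a (chr7:109960421-109960720, minus strand): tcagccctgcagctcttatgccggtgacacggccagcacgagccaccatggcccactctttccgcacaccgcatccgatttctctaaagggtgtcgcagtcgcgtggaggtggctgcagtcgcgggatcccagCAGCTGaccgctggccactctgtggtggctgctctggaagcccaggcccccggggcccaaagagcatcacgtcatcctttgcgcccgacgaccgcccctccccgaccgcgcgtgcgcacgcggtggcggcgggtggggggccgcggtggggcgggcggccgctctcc
Tmem140 (chr6:34862896-34863195, plus strand): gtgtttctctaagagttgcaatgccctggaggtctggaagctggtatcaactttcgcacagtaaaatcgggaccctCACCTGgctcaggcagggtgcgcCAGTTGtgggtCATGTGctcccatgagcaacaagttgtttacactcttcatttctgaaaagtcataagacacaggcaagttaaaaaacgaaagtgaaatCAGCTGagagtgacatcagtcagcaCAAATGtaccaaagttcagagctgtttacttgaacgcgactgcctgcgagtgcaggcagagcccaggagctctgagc
Nudt3 (chr17:27623403-27623702, minus strand): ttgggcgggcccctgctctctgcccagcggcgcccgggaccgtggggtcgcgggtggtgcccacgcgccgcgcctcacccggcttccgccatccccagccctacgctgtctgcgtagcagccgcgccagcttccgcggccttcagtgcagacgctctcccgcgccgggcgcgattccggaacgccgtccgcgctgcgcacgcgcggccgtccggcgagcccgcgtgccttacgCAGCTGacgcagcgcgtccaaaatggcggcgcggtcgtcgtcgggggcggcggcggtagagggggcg
Bahcc1 (chr11:120232697-120232996, plus strand): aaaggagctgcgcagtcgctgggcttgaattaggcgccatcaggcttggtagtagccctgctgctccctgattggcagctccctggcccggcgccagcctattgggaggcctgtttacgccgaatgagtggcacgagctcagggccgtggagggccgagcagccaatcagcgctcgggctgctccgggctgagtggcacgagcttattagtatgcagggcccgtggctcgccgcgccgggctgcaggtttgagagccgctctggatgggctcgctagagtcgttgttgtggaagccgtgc
Aplp2 (chr9:31211799-31212098, minus strand): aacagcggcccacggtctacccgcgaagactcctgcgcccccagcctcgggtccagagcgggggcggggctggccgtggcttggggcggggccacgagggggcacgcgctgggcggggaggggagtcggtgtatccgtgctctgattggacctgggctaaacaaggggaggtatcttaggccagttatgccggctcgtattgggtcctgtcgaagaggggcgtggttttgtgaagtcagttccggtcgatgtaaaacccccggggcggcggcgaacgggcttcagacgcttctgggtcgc
The CAGCTG in the Dhrs4 window starts 148 bases before the annotated start, that of Dennd5a 117, that of Tmem140 52 and that of Nudt3 17 bases before it. Tmem140 is the window among these with the most E-boxes, 5 in all.

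RefSeq windows were found for 18 of the 20 genes, with 21 windows in all because Dennd5a, Nudt3 and Abcc10 have more than 1 annotated start. Of the 18 genes, 16 (88.9%) had a CANNTG in a window, against 65.1% of the 5195 genes with a window among the 6481. The form CAGCTG was found in 9 of the 18 genes (50%): Abcc10, Cyp4f13, Dennd5a, Dhrs4, Jtb, Nudt3, Pink1, Tmem120b and Tmem140. It was found in 854 of the 5195 genes (16.4%). By window, which is the fixed length of 300 bases, it was in 10 of 21 (47.6%) against 13.9% of the windows of the 6481 genes and 16.3% of all windows in the RefSeq table. The E-box CAGGTG or its reverse complement CACCTG was in 5 of the 18 genes (27.8%, against 18.9%), and CACGTG in 1 (5.56%, against 12.5%). Both forms are themselves CANNTG.

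The share of genes with CAGCTG was also counted in gene groups next to this set. It was 72 of 406 (17.7%) among the other genes with no overlap and lower deficient levels. It was 8 of 46 (17.4%) among genes with a ratio from 1.5 to under 2. Of 322 genes with a window, a mean deficient level of 15 CPM or more and all deficient above all wildtype libraries, 50 (15.5%) held it. Among 15 genes with a window that met the same rule in the other direction, 5 (33.3%) held it, against 16.4% of the 5195 genes. A CANNTG was in 10 of those 15 (66.7%), against 65.1% of the 5195. A CAGCTG share above 16.4% was thus also found among the higher genes of the rule, where it rests on 5 genes, but not in their larger group. These shares describe letters in a window, not sites bound by a protein, and no test was made of their difference. A TATA box written as TATAAA, or TTTATA on the other strand, was in none of the 18 genes, against 7.85% of the 5195.

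Bahcc1 is a member known to act on chromatin. Bahcc1, a protein with a BAH domain that reads modified histones, was at 15.6, 23.9 and 18.4 CPM in the wildtype libraries. In the deficient libraries Bahcc1 was at 1.90, 0 and 1.98 CPM, which are 14, 0 and 14 reads. Its means were 19.3 ± 4.19 and 1.29 ± 1.12 CPM (SD, n = 3 each), a ratio of 14.9. Wildtype library 1 was the lowest wildtype library for Bahcc1, unlike for most members.

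Tgfbr3 and Aplp2 encode cell surface proteins. Tgfbr3 is betaglycan, a co-receptor that presents TGF-beta ligands to the signalling receptors. It had 301, 59 and 15 reads in the wildtype libraries (41.7, 6.40 and 2.58 CPM) and 0, 2 and 0 reads in the deficient libraries (0, 0.325 and 0 CPM). Tgfbr3 had the largest margin of the set, 7.92 between the lowest wildtype and the highest deficient library, and the widest wildtype spread relative to its mean. Over the summed reads its level was 173 times higher in wildtype, with a 95% counting interval from 47.7 to 1437 that does not cover the spread between libraries. The wildtype mean rested largely on library 1, which was 9.28 times the mean of the other wildtype libraries. Aplp2, an amyloid precursor-like protein known to take part in endocytosis of MHC class I molecules, was the most abundant member and behaved otherwise. It was at 126, 114 and 134 CPM in wildtype and at 51.3, 42.8 and 39.4 CPM in deficient libraries. The means were 125 ± 9.82 and 44.5 ± 6.16 CPM (SD, n = 3 each). This ratio of 2.80 was the smallest ratio of means in the set, with a small spread in both genotypes.

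Dennd5a and Mvb12b act in membrane traffic. Dennd5a, a DENN domain protein that regulates Rab GTPases, was at 27.3, 32.8 and 27.1 CPM in wildtype and at 3.39, 8.30 and 7.90 CPM in deficient libraries. Mvb12b, a subunit of the ESCRT-I complex that sorts cargo into multivesicular bodies, was at 49.4, 48.0 and 28.8 CPM in wildtype. Its deficient levels were 7.60, 4.07 and 10.6 CPM. The means of Mvb12b differed by a ratio of 5.67 and those of Dennd5a by 4.45. For these genes wildtype library 1 did not stand apart.

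Slc2a9, Slc31a2 and Abcc10 encode transporters. Slc2a9, a urate transporter of the facilitative sugar transporter family, was at 91.2, 9.11 and 14.6 CPM in wildtype and at 0, 3.42 and 2.54 CPM in deficient libraries. The reads behind these were 659, 84 and 85 against 0, 21 and 18. Deficient library 1, with no Slc2a9 read, and wildtype library 1, with the most, set most of its ratio of means of 19.3, while its ratio of lowest to highest library was 2.67. Slc31a2, a copper transporter, ranged from 9.01 to 38.5 CPM in wildtype and from 0.976 to 3.67 CPM in deficient libraries. Abcc10, an ATP-binding cassette exporter of drugs, ranged from 14.8 to 19.6 CPM and from 0.163 to 6.25 CPM.

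Nudt3, Dhrs4 and Cyp4f13 are metabolic enzymes. Nudt3 removes phosphate from diphosphoinositol polyphosphates. It was at 76.4, 62.2 and 47.7 CPM in wildtype and at 10.2, 10.6 and 16.4 CPM in deficient libraries, with means of 62.1 ± 14.3 and 12.4 ± 3.47 CPM (SD, n = 3 each). Only Aplp2 had a higher mean wildtype CPM in the set. Dhrs4, a short-chain dehydrogenase that reduces carbonyl compounds including retinal, had 194, 143 and 66 reads in wildtype (26.8, 15.5 and 11.3 CPM). In deficient libraries it had 0, 1 and 20 reads (0, 0.163 and 2.82 CPM), so deficient library 3 held nearly all of its reads in that genotype. Cyp4f13, a cytochrome P450 of the family that hydroxylates fatty acids, was at 45.8, 23.4 and 22.3 CPM against 3.53, 1.79 and 10.4 CPM. Deficient library 3 was again the highest deficient library.

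Pink1 and Gtpbp6 act in mitochondria. Pink1, the kinase that marks damaged mitochondria for removal, was at 34.3, 31.5 and 33.5 CPM in wildtype, the smallest relative spread of the set there. It was at 7.33, 6.18 and 15.5 CPM in deficient libraries, and its ratio of 2.03 lay just inside the threshold. Gtpbp6, a GTPase that recycles mitochondrial ribosomes, was at 63.5, 9.87 and 10.8 CPM in wildtype and at 0, 1.30 and 3.95 CPM in deficient libraries. As with Slc2a9, wildtype library 1 was the highest library and deficient library 1 held no read.

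Kif15, Timeless and Jtb are known for parts in cell division. Timeless, which stabilises stalled replication forks, was at 55.9, 31.0 and 22.2 CPM in wildtype and at 10.6, 1.30 and 8.47 CPM in deficient libraries. Jtb, a small membrane protein with a part in cytokinesis, was at 38.8, 17.7 and 29.0 CPM against 8.01, 6.35 and 7.62 CPM. The deficient libraries lay close together for Jtb and far apart for Timeless. Kif15, a spindle kinesin, ranged from 9.98 to 32.1 CPM in wildtype and from 0.488 to 4.38 CPM in deficient libraries.

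No role is stated here for Tmem140, Tmem120b and Ccdc17. Tmem140 was at 16.3, 28.4 and 17.7 CPM in wildtype and at 0.407, 5.21 and 3.67 CPM in deficient libraries. Tmem120b was at 54.7, 11.1 and 11.2 CPM against 5.43, 4.23 and 3.95 CPM. Without wildtype library 1, the mean wildtype level of Tmem120b fell under the 15 CPM of the rule. Ccdc17 ranged from 3.47 to 41.5 CPM in wildtype and from 0.272 to 1.55 CPM in deficient libraries.

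**Figure D1:**
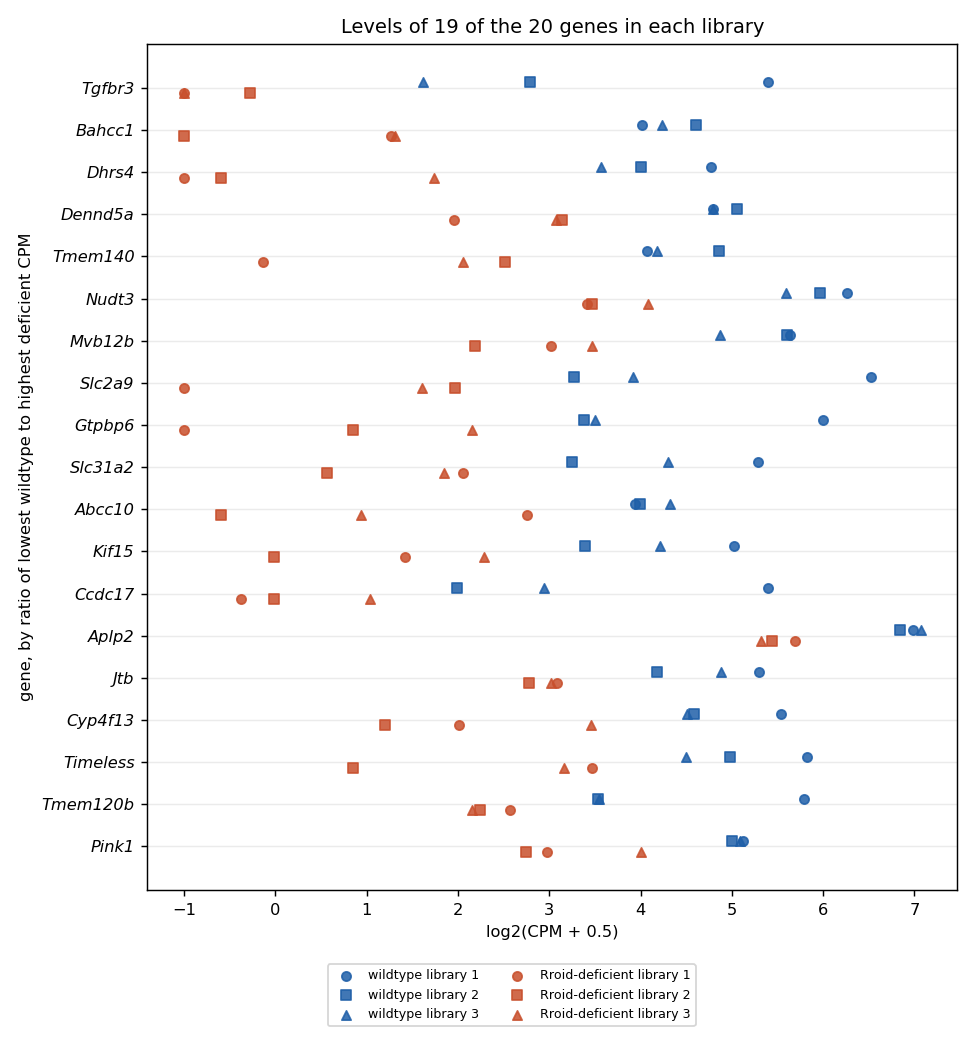
Level of 19 of the 20 genes (rows) in each of the 6 libraries, as log2(CPM + 0.5), with 1 point per library and colour for genotype. The genotypes do not overlap for any gene, which the choice of genes requires, and the wildtype points of Tgfbr3, Slc2a9, Gtpbp6, Ccdc17 and Tmem120b are the most spread because library 1 lies far to the right.

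The threshold cut through a continuous range. Just inside it lay Pink1 (ratio 2.03), Tmem120b (2.04), Timeless (2.09) and Cyp4f13 (2.14). Just outside lay Wscd2 (1.99871), Khdc1a (1.97), Entpd4b (1.96) and Lsm4 (1.91). The genotypes separated with no overlap, deficient below wildtype, in 534 of the 6481 genes (8.24%). The members, Id2 and Bmf are those of the 534 at a ratio of 2 or more, and Bmf, left out by name, had the widest ratio, 15.9. The same rule applied in the other direction was met by 20 of 6401 protein-coding genes at a mean deficient level of 15 CPM or more (0.312%), so the number of genes clearly lower was close to the number clearly higher.

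**Figure D2:**
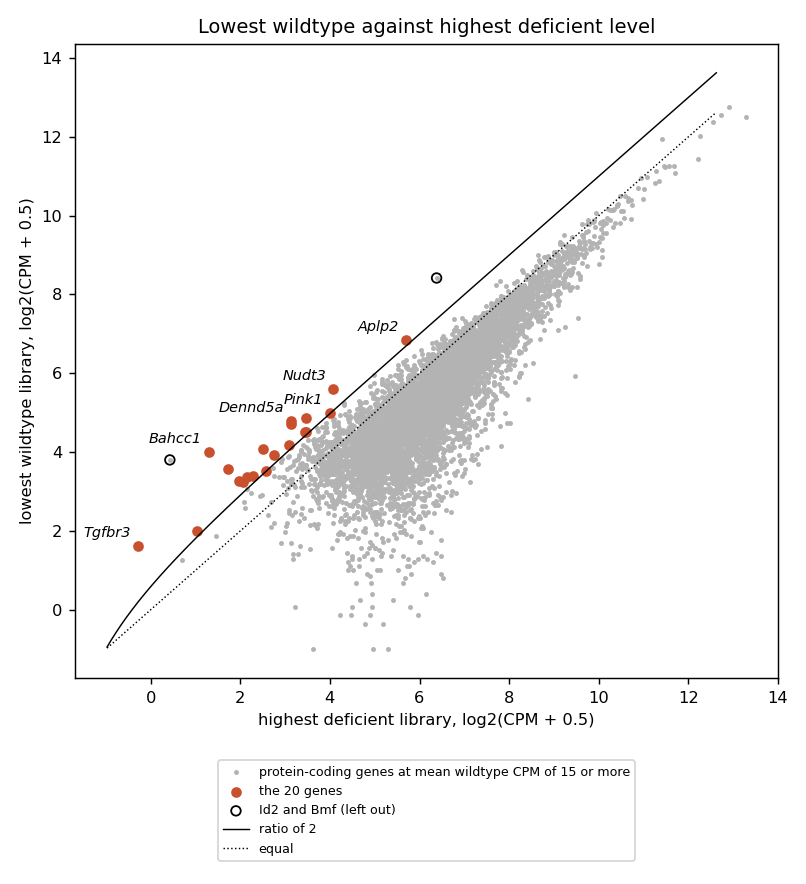
Lowest wildtype level (vertical axis) against highest deficient level (horizontal axis), both as log2(CPM + 0.5), for the protein-coding genes at a mean wildtype level of 15 CPM or more, with the 20 members marked and the ratio of 2 drawn as a line. The members lie above the line, several of them close to it, with Tgfbr3 and Bahcc1 at a ratio of 7.92 and 7.91.

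Wildtype library 1 set much of the wildtype mean for part of the set. It was the highest wildtype library for 14 of the 20 genes (70%), against 36.3% of the 6481. For 9 of the 20 (45%) it was at least 2 times the mean of wildtype libraries 2 and 3, against 9.29% of the 6481: Ccdc17, Cyp4f13, Gtpbp6, Kif15, Slc2a9, Slc31a2, Tgfbr3, Timeless and Tmem120b. Dhrs4 lay just short of that ratio. The members' summed level was 923 CPM in wildtype library 1, 543 and 521 CPM in wildtype libraries 2 and 3, and 129, 106 and 150 CPM in the deficient libraries. Without Aplp2 the sums were 796, 429 and 387 against 77.4, 63.6 and 110 CPM. The sum in every wildtype library was thus above that in every deficient library, as the choice of genes requires.

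Leaving out wildtype library 1 kept 12 of the 20 genes under the same rule. The other 8 were Ccdc17, Dhrs4, Gtpbp6, Kif15, Slc2a9, Slc31a2, Tgfbr3 and Tmem120b, whose mean wildtype level without that library was under 15 CPM. Of the 6481 genes, 96.0% kept a mean of 15 CPM or more without wildtype library 1. That share is not matched for level: the median wildtype mean was 28.3 CPM for the members and 49.5 CPM for the 6481 genes. Those that stayed include Abcc10, Aplp2, Bahcc1, Cyp4f13, Dennd5a, Jtb, Mvb12b, Nudt3, Pink1, Timeless and Tmem140. Because fewer libraries make the ratio easier to meet, 31 genes in all met the rule without wildtype library 1. Leaving out any other library kept all 20.

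**Figure D3:**
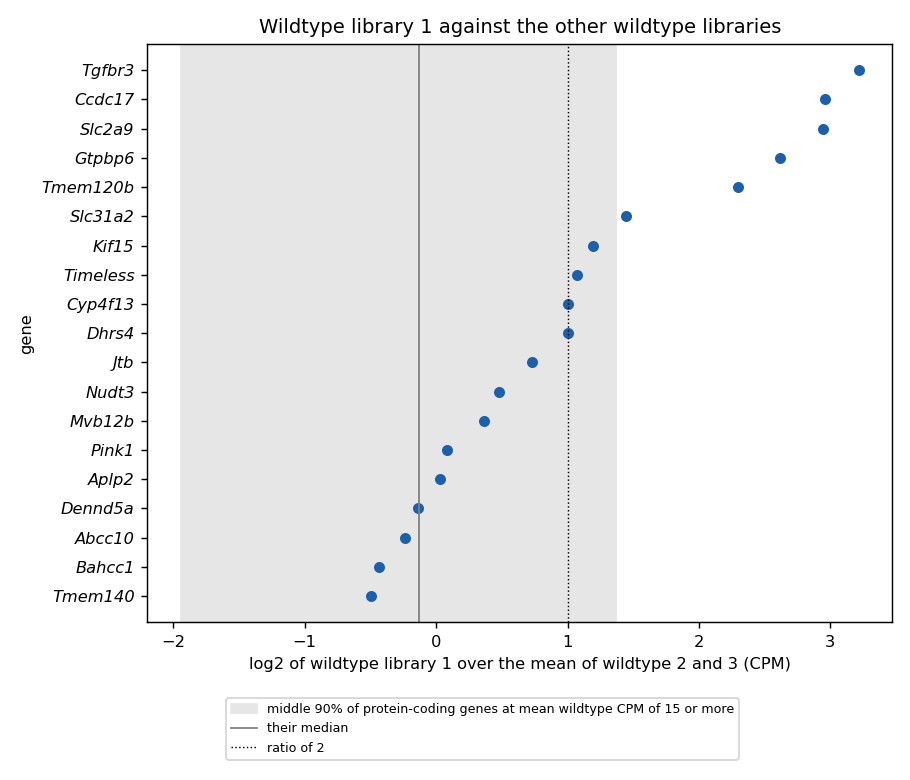
Level in wildtype library 1 over the mean of wildtype libraries 2 and 3 for 19 of the 20 genes (rows), on a log2 axis of the CPM ratio, over a grey band and a grey line for the middle range and the median of all 6481 protein-coding genes at 15 CPM or more, with a dotted line at a ratio of 2. The members run from 0.708 for Tmem140 to 9.28 for Tgfbr3, with a median of 1.83 against 0.913 for all such genes.

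Counts of 0 in deficient libraries are part of what a rule on low deficient levels picks. A count of 0 in at least 1 deficient library was found for Bahcc1, Dhrs4, Gtpbp6, Slc2a9 and Tgfbr3, 5 of 20 (25%), against 32 of the 6481 (0.494%). Deficient library 1 held 4 of these and had a count of 0 in 0.478% of the 6481 genes, against at most 0.0617% in each other library. No member was at 0 in a wildtype library. The median coefficient of variation between wildtype libraries was 40.2% for the members and 27.6% for the 6481 genes, and between deficient libraries 75.5% and 32.3%. The genes were not matched for level in this comparison. The members' median level was 3.60, 2.60 and 4.02 CPM in deficient libraries 1, 2 and 3, low levels that the rule picks. Few reads alone raise the coefficient of variation there, so it is not read as a trait of the set. In a bulk library, fewer cells expressing a gene and less of its RNA per cell cannot be told apart.

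The members were not abundant for their length. Wildtype CPM per kilobase of exon had a median of 6.74 for the members against 10.3 for the 6481 genes. Aplp2 (21.2 CPM per kilobase) and Jtb (18.6) were the highest members on this scale, followed by Nudt3 (13.5) and Pink1 (12.4). Kif15 (1.82) and Bahcc1 (1.74) were the lowest. Median exon length was 5468 bases against 5244, and median GC content of the transcripts 53.1% against 48.3%.

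Across all 11724 genes tested with edgeR's quasi-likelihood test, 1 gene passed a Benjamini-Hochberg adjusted p of 0.05 as lower in the deficient libraries (0.00853%). That gene was Id2, at 432, 342 and 373 CPM in wildtype and at 36.7, 66.5 and 82.9 CPM in deficient libraries, and none of the 20 members passed. At an unadjusted p under 0.05 by edgeR, all 20 members were lower, as were 296 of the 11724 genes (2.52%). DESeq2 on the same genes called 27 of 11433 lower (0.236%), among them 9 members, which include Aplp2, Bahcc1, Ccdc17, Gtpbp6, Mvb12b, Nudt3, Slc2a9 and Tgfbr3. It called 38 higher (0.332%), none of them a member. limma-voom called 1 gene lower and no member. The rule used this contrast, so nothing about the members is read from these counts.

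The fitted log2 fold changes, deficient minus wildtype, give the precision behind each member. Aplp2 had the smallest change and the smallest standard error, -1.45 with an SE of 0.29. Nudt3 (-2.32, SE 0.46), Pink1 (-1.76, SE 0.57) and Mvb12b (-2.50, SE 0.59) had the next smallest standard errors. The largest fitted change was that of Tgfbr3, -7.23 with an SE of 1.69, a value that depends on how a near-absence of deficient reads is handled in the fit. Ccdc17 (-4.54, SE 1.26), Slc2a9 (-4.35, SE 1.31), Dhrs4 (-4.19, SE 1.37) and Gtpbp6 (-4.07, SE 1.33) also had standard errors above 1, as had Bahcc1 and Abcc10. The median over the 20 was -2.57, against 0.02 over all tested genes.

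The set did not form a block in the genome. Chromosome 5 held 4 members (Slc2a9, Tgfbr3, Gtpbp6 and Tmem120b), 20% of the set against 6.42% of the 6481 genes. Chromosomes 4 and 17 held 3 each (15%, against 6.16% and 4.77%) and chromosome 9 held 2 (10%, against 5.79%). A further 8 chromosomes held 1 each. None lay on chromosome 12, which held 3.58% of the 6481 genes. Id2 is on that chromosome and met the rule but was left out by name. The closest pair was Tgfbr3 and Gtpbp6, 2.997 megabases apart on GRCm38 with 13 other genes of the 6481 between them. The nearest protein-coding neighbour at 5 CPM or more on each side of every member gave 40 genes. Their median ratio of wildtype to deficient mean was 1.06, against 1.03 over all 8652 such genes. Ddost, next to Pink1, was the 1 neighbour with all wildtype libraries above all deficient libraries, at 40.8, 98.2 and 43.6 CPM against 24.6, 13.5 and 30.5 CPM. The share over all such genes was 7.85%.

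Exons of 10 members overlap those of another annotated gene, 6 of them on the opposite strand. The library kit does not mark strand, so reads of such pairs cannot be told apart where they overlap. Plcxd1 overlaps 39.5% of the exon bases of Gtpbp6 and had 756, 105 and 80 reads in wildtype and 204, 15 and 39 in deficient libraries. Wildtype library 1 was highest for both genes, while deficient library 1 held no Gtpbp6 read. Cyren overlaps 37.0% of the exon bases of Tmem140 and had 37, 208 and 69 reads against 97, 6 and 17, a different order of libraries. C530005A16Rik overlaps 33.1% of Ccdc17, and Rhof 18.3% of Tmem120b. The reads of C530005A16Rik and of Rhof overlapped between genotypes. Rhof was at 143, 53.3 and 53.4 CPM in wildtype, so wildtype library 1 was highest for it as for Tmem120b.

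Genes that work beside the members were listed by role, in 15 lists with 142 genes, of which 105 were tested. None of the 105 passed an adjusted p of 0.05 by edgeR or DESeq2 in either direction. Deficient levels lay wholly below the wildtype levels in 10 of the 105 and wholly above them in 3, against 6.96% and 5.04% of the 11724 tested genes. The listed genes were chosen after their values were seen, so these counts are a description and nothing is concluded from their difference. The other receptors and SMADs of the TGF-beta superfamily, listed beside Tgfbr3, had a median log2 fold change of 0.14 over 11 genes. Smad7, an inhibitor of that pathway, was at 127, 30.8 and 29.2 CPM against 26.9, 11.9 and 26.4 CPM, again with a high wildtype library 1. Tgfbr1, the type I receptor, was at 39.4 ± 9.69 CPM in wildtype and 60.6 ± 5.30 CPM in deficient libraries (SD, n = 3 each), and Tgfbr2 at 166 ± 33.3 and 129 ± 24.6 CPM.

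Relatives of Bahcc1 were also measured. The 10 BAH domain proteins listed beside Bahcc1 had a median log2 fold change of -0.37. In that list the genotypes did not overlap for Mta2 (179 ± 42.3 against 106 ± 21.7 CPM) and Pbrm1 (254 ± 5.42 against 186 ± 34.9 CPM), subunits of chromatin remodelling complexes.

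Lists beside the cell division members had the lowest and the highest medians of the 15. Spindle kinesins and their partners, beside Kif15, had a median log2 fold change of -1.34, with 6 of 9 below 0. Among those 6, Kif18a was at 8.09 ± 3.86 against 1.90 ± 0.861 CPM (SD, n = 3 each). The SEs of the log2 fold changes in this list ran from 0.50 for Kif20b to 1.67 for Kif22. Kif20b was higher in deficient libraries, at 27.6 ± 9.91 against 38.1 ± 14.4 CPM (SD, n = 3 each). The chromosomal passenger complex, which directs cytokinesis and stands beside Jtb, had 4 of 4 tested genes below 0 with a median of -1.11. Its scaffold Incenp was at 24.9, 27.5 and 18.7 CPM against 5.70, 7.48 and 13.97 CPM. Aurkb, Birc5 and Cdca8 had low means, 1.46 to 5.29 CPM in wildtype and 1.02 to 2.70 CPM in deficient libraries. The SEs of their log2 fold changes were 1.10 to 1.81. Replication fork genes, beside Timeless, had a median of 0.56 with 8 of 10 above 0. The median over all tested genes was 0.02, and the share of them below 0 was not counted. Tipin, the partner of Timeless in the fork protection complex, was at 8.44, 12.5 and 19.2 CPM in wildtype and at 1.22, 25.2 and 9.46 CPM in deficient libraries, which overlap.

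The remaining lists had medians between -0.68 and 0.39. Dennd6b, beside Dennd5a, was at 18.5, 6.08 and 12.9 CPM against 3.12, 0.488 and 5.36 CPM, in a list of 11 DENN domain genes with a median of -0.02. Mvb12a, the counterpart of Mvb12b, was at 20.7 ± 11.9 and 12.7 ± 4.08 CPM (SD, n = 3 each), in a list of 6 ESCRT-I subunits with a median of 0.09. The copper genes beside Slc31a2 had a median of -0.09 over 9, with the uptake transporter Slc31a1 at 19.1 ± 8.64 and 8.24 ± 6.81 CPM (SD, n = 3 each). The 5 sugar transporters beside Slc2a9 had a median of -0.46 and the 3 tested relatives of Abcc10 one of -0.68. Among those relatives Abcc5 was at 21.2, 17.0 and 22.3 CPM against 0.407, 16.4 and 15.4 CPM. Mitophagy genes beside Pink1 had a median of -0.04 over 9. Dhrs3, beside Dhrs4, was at 67.3, 58.5 and 51.9 CPM against 9.91, 36.9 and 18.5 CPM, in a list of 5 with a median of 0.39. The Gtpbp genes beside Gtpbp6 had a median of 0.16 over 6, and the 2 tested CYP4F genes beside Cyp4f13 one of 0.16.

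**Figure D4:**
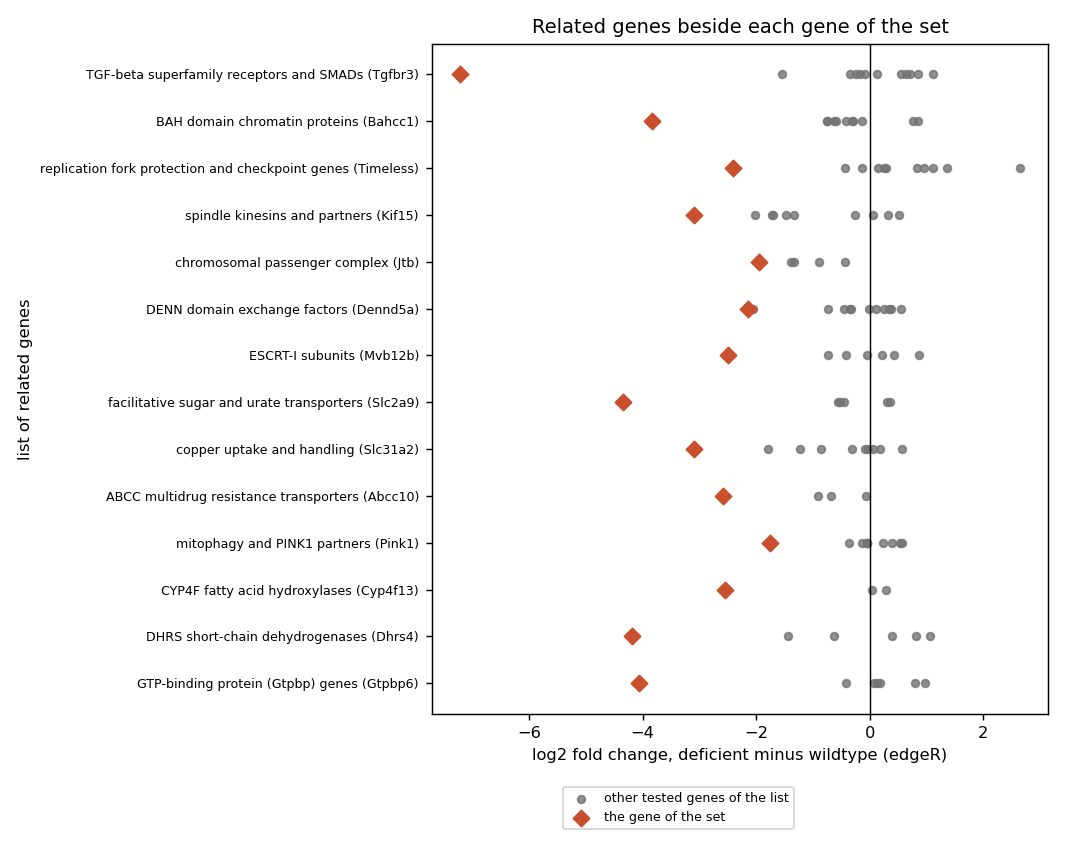
Log2 fold change (deficient minus wildtype, edgeR) of each tested gene in 14 of the 15 lists (rows), 1 point per gene, with the member each list stands beside marked in the same row. Each member lies left of every other gene in its row, and the list medians run from -1.34 to 0.56.

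Further lists held 2 of the members. Aplp2 is in the list of the amyloid precursor family and its proteases, whose 9 tested genes had a median log2 fold change of -0.16. Psen2, a presenilin of the gamma-secretase, was at 0.969, 9.98 and 11.3 CPM in wildtype and at 43.3, 20.7 and 11.4 CPM in deficient libraries. Nudt3 is in the list of inositol phosphate turnover, with a median of -0.16 over 15 tested genes. Its relative Nudt4 was at 85.3, 129 and 146 CPM in wildtype and at 223, 203 and 154 CPM in deficient libraries, a log2 fold change of 0.74 with an SE of 0.26, opposite in sign to that of Nudt3. Itpk1 was at 40.8 ± 8.06 against 24.6 ± 6.24 CPM and Itpkb at 90.2 ± 31.4 against 139 ± 21.7 CPM (SD, n = 3 each), both kinases of inositol phosphates. By edgeR no gene of these lists passed an adjusted p of 0.05, and by DESeq2 1 in each did, the member itself.

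Lists of NK cell genes held no member. By edgeR, 0 of 25 mature NK cell genes, 0 of 16 immature NK cell genes, 0 of 27 NK cell receptors, 0 of 14 ILC1 markers and 0 of 18 cytotoxic granule genes passed an adjusted p of 0.05, with median log2 fold changes of -0.20, 0.43, -0.13, 0.71 and -0.17. By DESeq2, 1 mature gene, 1 receptor and 1 granule gene were lower, and 2 immature genes, 2 ILC1 markers and 2 granule genes were higher. The lists share genes: the lower mature and granule gene is the same, Gzma, and Kit is counted in both the immature and the ILC1 list. In the immature list, 9 of 16 genes had all deficient libraries above all wildtype libraries and none had them all below. In the mature list 9 of 25 had them all below and 2 all above. Over all 11724 tested genes these shares were 6.96% below and 5.04% above. Of 4 tested E protein factors and partners, Id2 was called by both tools. Tcf3, which encodes the E proteins E12 and E47, was at 94.5, 59.1 and 52.4 CPM against 19.4, 11.2 and 49.0 CPM, without overlap.

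Marker lists of other cell types were low beside those of NK cells. The 12 NK cell markers summed to 14448 to 15129 CPM in wildtype and 11381 to 11958 CPM in deficient libraries. Of the 12, 9 had a log2 fold change below 0 and 3 above. Gzma, among the 9, was at 4500 ± 560 against 2531 ± 304 CPM, and Il2rb, among the 3, at 2724 ± 452 against 2869 ± 211 CPM (SD, n = 3 each). The 12 T cell markers summed to 173 to 246 CPM in wildtype and 345 to 460 CPM in deficient libraries, with Cd6 and Cd8a at 0 in every library. In that list Cd3g was at 6.34 ± 2.41 CPM in wildtype and 62.5 ± 7.49 CPM in deficient libraries, and Cd3d at 6.95 ± 2.44 and 49.2 ± 23.7 CPM (SD, n = 3 each), neither with overlap. DESeq2 called both higher and edgeR neither, while Cd3e was at 0.326 CPM or less in every library. The 10 B cell markers summed to 14.4 to 20.3 and 13.5 to 52.7 CPM, with Pax5 and Blk among those at 0. The 12 myeloid markers summed to 459 to 494 and 400 to 442 CPM, with Fcgr1, Mpo, S100a8 and Cd14 at 0, and the 6 plasma cell markers to 34.3 to 71.9 and 24.6 to 65.3 CPM, with Sdc1 and Tnfrsf17 at 0. The 10 red blood cell and platelet markers summed to 11.3 to 18.3 CPM in wildtype and 1.46 to 8.47 CPM in deficient libraries, with Pf4 and Ppbp at 0. Among these 10, the genotypes separated without overlap for Alas2 only. Alas2 was at 14.4, 4.12 and 9.79 CPM in wildtype and at 0.679, 0 and 3.11 CPM in deficient libraries. The haemoglobin genes Hba-a1, Hba-a2, Hbb-bt and Hbb-bs overlapped between genotypes. The 8 stromal and endothelial markers summed to 36.3 to 49.5 and 33.5 to 82.2 CPM, none of them at 0 in every library. Itgax alone made up most of the myeloid sum, at 377 to 482 CPM. Xbp1 made up most of the plasma cell sum and Pecam1 most of the stromal and endothelial sum. Trbc1 and Trbc2 together made up most of the T cell sum. The part of other cell types in the members' levels was not tested.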

How the data were processed

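RNA-seq was run on 3 wildtype and 3 Rroid-deficient libraries, made with a kit that does not mark strand. The authors deposited raw read counts per Ensembl gene, 1 file per library. The submitters' processing notes name Trimmomatic 0.33, TopHat2 2.1.0, HTSeq 0.6.1 and DESeq2, with builds NCBIM37 and mm9 but not their settings. The 5 closing rows that name no gene held 80.0% to 84.4% of each file's total and were left out. Gene names and types came from GENCODE M21 (32938 of 37991 IDs matched) and promoter windows from RefSeq (GRCm38.p6). The direction of all 21 windows was checked by looking for their last 30 bases in the gene's transcripts. These were found for 20 windows and not for the remaining window, which was not identified.

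Counts were divided by assigned reads to give CPM. Genes were tested with edgeR 4.0.16 (TMM, filterByExpr, quasi-likelihood, genotype only, R 4.3.3), tested first on simulated data. DESeq2 1.42.0, limma 3.58.1 voom, other scalings and filters, a replicate block and left-out libraries were alternatives. The members, lists and tests were chosen with earlier results of these data known, and the 15 lists of related genes were written after the members were known. Per-library values are given for the 10 members of highest mean wildtype CPM, the 10 of largest ratio, those just inside the threshold, those in a list and those at 0 in at least 2 deficient libraries. The others are given by range, and 1 member, its list of related genes and 1 marker are not reported here by name. Genes set beside members in the 15 lists were chosen after their values were seen.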

Additional observations from a re-analysis of the deposited data

How the results depend on the processing

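The number of genes meeting the rule, 20, was 19 with TMM scaling (18 of the 20 remained; Timeless and Tmem120b did not), 19 with RLE scaling (17 remained; Cyp4f13 did not either) and 23 over all gene types. It was 77 at a ratio of 1.5, 6 at a ratio of 3, 69 at a mean of 5 CPM and 2 at a mean of 50 CPM. Leaving out 1 library gave 31 (without wildtype library 1) to 139 (without deficient library 3) genes. Leaving out wildtype library 1 and deficient library 1 together, an alternative chosen after seeing the data, gave 64 genes, 12 of them members. Calls at an adjusted p of 0.05, 1 lower and 1 higher by edgeR, were 27 and 38 by DESeq2, 43 and 55 by edgeR with no filter (7 members among the lower), and 0 higher by limma-voom. Without any 1 library, or without wildtype library 1 and deficient library 1, edgeR called from 0 to 0 genes in each direction. With the replicate number as a block, 0 genes were called in each direction and the members' median log2 fold change was -2.93. The labels do not say whether same-numbered libraries were paired. Residual correlations were -0.039, -0.030 and -0.014 for same-numbered libraries and ran from -0.023 to 0.039 for the others. With so few libraries per genotype, these values cannot exclude a pairing. The members' median log2 fold change, -2.57 in the main fit, ran from -2.93 to -2.31 over the alternatives. Of 200 refitted values of single members, 191 stayed on the same side of the threshold, 9 passed it, all by DESeq2, and 0 changed sign. The cause of these changes was not tested, except that fewer libraries make the ratio easier to meet. Deficient levels of at most 2 reads per library, as for Tgfbr3, have wide counting errors.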

Other observations

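Genes outside the protein-coding class met the same rule in 3 cases. Trerf1, annotated as a processed transcript in the release used and known as a transcriptional regulating factor with zinc fingers, was at 31.3, 34.0 and 30.9 CPM in wildtype libraries 1, 2 and 3 and at 7.60, 10.9 and 15.2 CPM in deficient libraries 1, 2 and 3. Its ratio of lowest wildtype to highest deficient library was 2.03 and its wildtype libraries lay close together. ENSMUSG00000086400, which has no symbol in the annotation used, was at 44.98, 5.21 and 8.59 CPM against 0, 0.163 and 0.565 CPM. This gene had a ratio of 9.22, above that of every protein-coding member, and wildtype library 1 was again far above the others. ENSMUSG00000086768, also without a symbol, was at 20.8, 14.9 and 13.9 CPM against 5.16, 3.58 and 6.35 CPM, a ratio of 2.19.

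By gene family name, solute carriers made up 2 of the 20 members (10%) and 1.43% of the 6481 genes, kinesins and dyneins 1 (5%) and 0.339%, and transmembrane and coiled-coil genes without a family name 3 (15%) and 2.56%. Families that had no member include the kinases named as such, ubiquitin genes, ribosomal protein genes, interleukins and chemokines, and the killer cell lectin-like receptors. These counts carry no test.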
